A study of Mus musculus with 4 samples.

Results

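The adrenergic receptor genes are the subject here, and their 8 members were Adra1a, Adra1b and Adra1d of the alpha 1 subfamily, Adra2a, Adra2b and Adra2c of the alpha 2 subfamily, and Adrb1 and Adrb3 of the beta subfamily. They were found in the table by gene symbol, 8 of 28193 genes, and all 8 had more than 5 counts in every library and entered the test. The samples were 4 fosTRAP-seq libraries from CA1, a field of the dorsal hippocampus, made from male C57BL/6J mice aged 3 to 5 months. RiboTag is a ribosomal protein, Rpl22, with an HA epitope, so that an antibody to HA pulls down ribosomes of the tagged cells with the RNA on them. Here 1 virus carried a tamoxifen-inducible Cre driven by c-Fos regulatory sequence and another carried the Cre-dependent HA-mRpl22, and the labels give the genotype as cFos-Cre:Ribotag. All mice, those later left undisturbed included, were kept awake for 5 h on day 0 under 4-hydroxytamoxifen (4-OHT), so both groups carry the tag of that day. A week later, on day 7, the sleep deprived mice (SD) were kept awake for 5 h once more. The non-sleep-deprived mice (NSD) were left undisturbed that day, and tissue was taken at ZT5 from both groups. Each library pooled CA1 tissue from 5 mice, and each group had 2 libraries (10 mice), so a value is an average over animals. Per the labels, batch 1 held NSD 1 and SD 1 and batch 2 held NSD 2 and SD 2. No library of unbound input RNA was analysed here, so enrichment in tagged cells was not measured.

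Noradrenaline reaches the hippocampus mainly from neurons of the locus coeruleus, which fire during waking and fall nearly silent in rapid eye movement sleep. Its receptors are G protein coupled receptors. The alpha 1 subtypes couple to Gq and phospholipase C, the alpha 2 subtypes to Gi and Go, which lower cyclic AMP and open GIRK potassium channels, and the beta subtypes to Gs, which raises cyclic AMP. In the hippocampus beta adrenergic signaling is known for its part in long-term potentiation and in the storage and retrieval of memory, and alpha 2A receptors are also known as autoreceptors on noradrenergic axons.

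The question for these genes was which receptor transcripts were bound to ribosomes in the tagged cells, and at what level in SD against NSD. Transcripts of 6 subtypes, Adra1a, Adra1b, Adra1d, Adra2a, Adra2c and Adrb1, had 1189 to 7962 counts in every library, and Adra2b and Adrb3 were near the lower end of the measured range. No subtype passed the test of SD against NSD in the edgeR quasi-likelihood fit with no batch term. The smallest p among them was that of Adra2a, at 1.29-fold of NSD (95% interval 1.12 to 1.49), which passed the test in 2 of the alternatives. Adrb1, the gene of the beta 1 receptor, was at 1.03-fold of NSD, with an interval of 0.914 to 1.15.

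The libraries held 153511705 to 195910235 counts, with 26179 to 27551 genes counted. CPM below are counts per 1000000 counts of the library after TMM scaling, and log2 fold changes are SD against NSD. Markers of CA1 and of excitatory neurons in general summed to 6340 to 6980 CPM, with Camk2a alone at 4090 to 4380 CPM. The design aims to tag excitatory neurons of CA1. Astrocyte markers summed to 3060 to 3630 CPM, with Slc1a2 alone at 2580 to 3150 CPM. Oligodendrocyte markers summed to 1580 to 1910 CPM, with Mbp alone at 880 to 1070 CPM. Sums that rest so much on 1 gene do not give the mix of cell types. How much of the receptor RNA came from cells other than tagged neurons was not tested. In such pooled RNA, fewer cells of a type and less RNA per cell cannot be told apart. Nothing in the labels ties single animals to values, so p-values measure the spread between pools.

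Adra1a encodes the alpha 1A receptor (ENSMUSG00000045875, GRCm39 chromosome 14, 66872700 to 67008617, plus strand). It stood at 30.4 and 28.7 CPM in NSD 1 and NSD 2 and at 38.5 and 30.3 CPM in SD 1 and SD 2. SD 1 was the high library, and SD 2 lay within the NSD range. The log2 fold change was 0.22 (SE 0.11, 95% interval -0.04 to 0.47), with an adjusted p of 0.34 (edgeR, Benjamini-Hochberg over all genes tested). It was 0.34 within batch 1 and 0.08 within batch 2. Without SD 2 the log2 fold change was 0.39 and passed the test (adjusted p = 0.0267, edgeR), in a fit that called 1.38% of all genes higher. That fit set SD 1 alone against both NSD libraries, with the spread taken from the NSD pair and SD 1 assumed to vary alike, and without SD 1 it was 0.04.

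Adra1b encodes the alpha 1B receptor (ENSMUSG00000050541, chromosome 11, 43665433 to 43792037, minus strand). Its levels were 7.17 and 8.62 CPM in NSD 1 and NSD 2 and 8.84 and 10.6 CPM in SD 1 and SD 2. Both SD libraries were above both NSD libraries, by a narrow margin between NSD 2 and SD 1, and library 2 was the higher of each group. The log2 fold change was 0.30 (SE 0.14, 95% interval -0.02 to 0.62), and the adjusted p was 0.287 in edgeR. Each batch taken alone gave 0.30, and leaving out each library in turn gave 0.18 to 0.44.

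Adra1d encodes the alpha 1D receptor (ENSMUSG00000027335, chromosome 2, 131387770 to 131404203, minus strand). Its levels were 40.8 and 50.7 CPM in NSD 1 and NSD 2 and 38.8 and 41.8 CPM in SD 1 and SD 2. The groups overlapped, since SD 2 was above NSD 1, and NSD 2 was the highest library. It was the only subtype measured at more than 1 CPM whose log2 fold change was below 0, at -0.18 (SE 0.10, 95% interval -0.42 to 0.05), with an adjusted p of 0.401 (edgeR). Without NSD 2 it was -0.02, and without NSD 1 it was -0.30. Its exons share 888 bases with Gm14285, a long noncoding RNA on the opposite strand with 1.005 to 19.04 counts, so reads of these genes cannot be told apart with certainty either where the counting did not use strand.

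Adra2a encodes the alpha 2A receptor (ENSMUSG00000033717, chromosome 19, 54032582 to 54037413, plus strand). It stood at 11.7 and 12.2 CPM in NSD 1 and NSD 2 and at 15.4 and 15.5 CPM in SD 1 and SD 2. The means were 11.9 ± 0.368 (standard deviation, n = 2) in NSD and 15.4 ± 0.0736 (standard deviation, n = 2) in SD. Both SD libraries were above both NSD libraries, and the gap between groups was wider than the gap within either. The log2 fold change was 0.37 (SE 0.09, 95% interval 0.16 to 0.58), with an unadjusted p of 0.0031 and an adjusted p of 0.0665 in edgeR, above the threshold of 0.05. The change was 0.40 within batch 1 and 0.34 within batch 2. With the batch number as a replicate block the log2 fold change was again 0.37 and the adjusted p was 0.0103 (edgeR), and with DESeq2 they were 0.39 and 0.00645. Over all 10 alternatives the log2 fold change ran from 0.35 to 0.40 and the adjusted p from 0.00645 to 0.152. In GENCODE 382 exon bases of Adra2a are shared with Gm59091 on the opposite strand, which has no row in the table.

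Adra2b encodes the alpha 2B receptor (ENSMUSG00000058620, chromosome 2, 127205128 to 127209141, plus strand). It had 32 and 18 counts in NSD 1 and NSD 2 and 25 and 37 counts in SD 1 and SD 2, or 0.193, 0.115, 0.138 and 0.196 CPM. The groups overlapped, and at these counts the Poisson error alone was 16.4% to 23.6% of the value. The 95% interval of the log2 fold change, -1.12 to 1.36, covers both a doubling and a halving.

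Adra2c encodes the alpha 2C receptor (ENSMUSG00000045318, chromosome 5, 35435663 to 35439107, plus strand). Its levels were 31.0 and 30.0 CPM in NSD 1 and NSD 2 and 33.4 and 33.2 CPM in SD 1 and SD 2. Both SD libraries were above both NSD libraries, by a smaller step than in Adra2a. The log2 fold change was 0.13 (SE 0.07, 95% interval -0.03 to 0.29), with an adjusted p of 0.39 in edgeR and 0.235 with the replicate block.

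Adrb1 encodes the beta 1 receptor (ENSMUSG00000035283, chromosome 19, 56710631 to 56721545, plus strand). It stood at 29.1 and 30.0 CPM in NSD 1 and NSD 2 and at 31.0 and 29.6 CPM in SD 1 and SD 2. The groups overlapped, with SD 2 between both NSD libraries. The log2 fold change was 0.04 (SE 0.073, 95% interval -0.13 to 0.20), with an adjusted p of 0.853 in edgeR. Its exons share 330 bases with Gm59115 and 201 with Gm59077, both on the opposite strand and without a row in the table.

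Adrb3 encodes the beta 3 receptor, best known from fat cells (ENSMUSG00000031489, chromosome 8, 27715804 to 27740644, minus strand). It stood at 0.862 and 0.604 CPM in NSD 1 and NSD 2 and at 0.664 and 0.777 CPM in SD 1 and SD 2, or 95 to 147 counts. The groups overlapped, and the SD libraries lay between the NSD libraries. The log2 fold change was -0.03 (SE 0.35, 95% interval -0.83 to 0.77), with an adjusted p of 0.982 in edgeR. Its annotated exons share 2540 bases with those of Gm45470, a long noncoding RNA on the opposite strand that was itself counted at 0.724 to 1.07 CPM. Whether the authors' counting used strand is not given in the sources used here, so reads of Adrb3 and Gm45470 cannot be told apart with certainty.

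**Figure D1:**
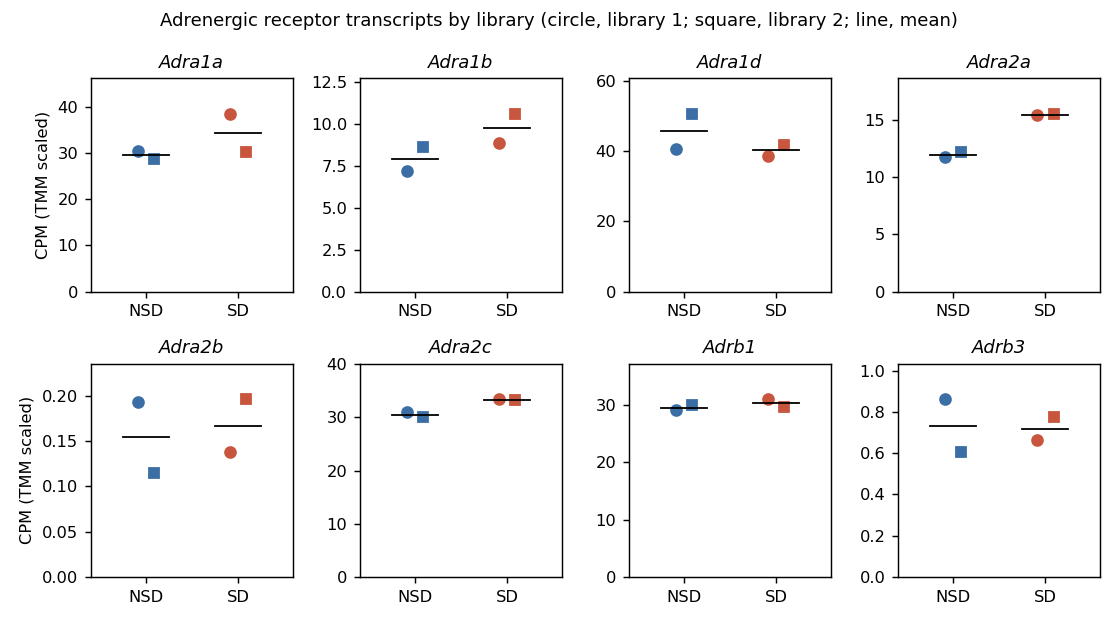
Level of each receptor transcript in CPM after TMM scaling (y axes from 0, a scale for each gene) in the NSD and SD libraries, with circles for library 1, squares for library 2 and a line at the group mean. The Adra2a groups stand apart, at 11.7 and 12.2 against 15.4 and 15.5 CPM, and the Adrb1 groups overlap between 29.1 and 31.0 CPM.

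Of the 8 subtypes, 0 were called higher and 0 lower in SD by edgeR with adjusted p < 0.05 and more than 1.2-fold change, where 0.77% of all 22338 genes tested were called higher and 2.33% lower. At an unadjusted p under 0.05, 1 subtype, Adra2a, was higher, beside 6.86% of all genes. With the replicate block 1 subtype was called higher, Adra2a, and 0 lower, beside 2.99% and 8.47% of all genes. DESeq2 also called Adra2a alone, beside 2.99% of genes called higher and 5.79% called lower. Of the 15551 protein-coding genes tested, edgeR called 148 higher and 84 lower, against 172 and 520 over all genes. With the replicate block these were 587 and 512 protein-coding genes, and with DESeq2 608 and 278. Shares of all genes, here and for the lists below, include genes that are not protein-coding. Both SD libraries were above both NSD libraries for 3 subtypes, Adra1b, Adra2a and Adra2c, beside 22.0% of all genes and 26.6% of protein-coding genes. The opposite order was found in 0 subtypes, beside 27.5% of all genes and 19.9% of protein-coding genes. Under DESeq2 size factors Adra1a and Adrb1 joined the 3, and 5 subtypes had the SD libraries above, as did 25.3% of all genes. With library totals and no TMM, 2 subtypes, Adra2a and Adra2c, had the SD libraries above and 1, Adra1d, had them below, beside 14.2% and 34.9% of all genes.

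**Figure D2:**
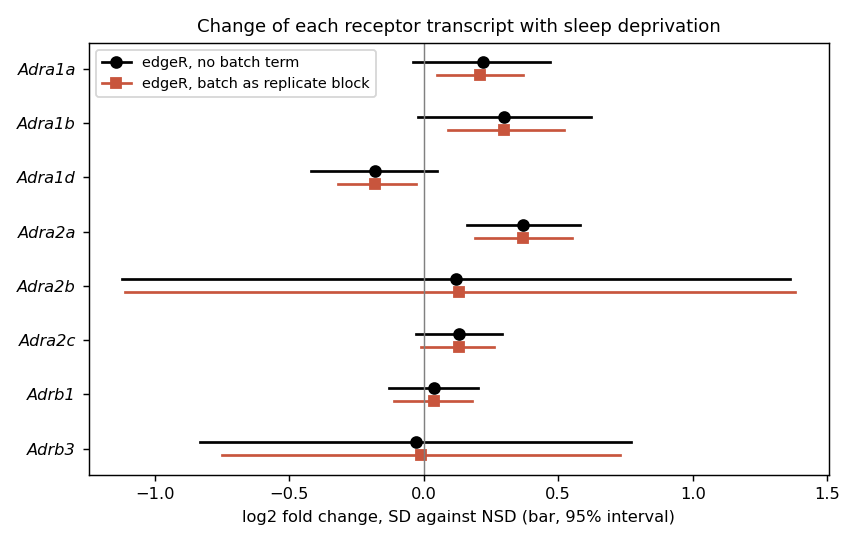
Log2 fold change of each receptor transcript, SD against NSD (x axis), from edgeR with no batch term (black circles) and with the batch number as a replicate block (orange squares), with bars for the 95% interval. Adra2a is the gene whose intervals lie above 0 in both fits, 0.16 to 0.58 and 0.19 to 0.55, and Adra2b and Adrb3 have the widest intervals.

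By subfamily, the 3 alpha 2 genes had a median log2 fold change of 0.13, the 3 alpha 1 genes 0.22 and the 2 beta genes 0.01, beside -0.016 over all genes tested and 0.018 over protein-coding genes. Summed over genes, alpha 2 transcripts were at 42.9 and 42.3 CPM in NSD and 49.0 and 48.9 CPM in SD, without overlap. The alpha 1 sums, 78.4 and 88.0 CPM in NSD and 86.2 and 82.7 CPM in SD, overlapped. Log2 fold changes of the alpha 1 genes were 0.22 for Adra1a, 0.30 for Adra1b and -0.18 for Adra1d, and all of their 95% intervals included 0 in the fit with no batch term. With the replicate block the intervals excluded 0, at 0.05 to 0.37, 0.09 to 0.52 and -0.32 to -0.03, and the adjusted p in edgeR were 0.0788, 0.0621 and 0.1, above the threshold.

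Ratios of genes within a library do not depend on the scaling between libraries, and those below were chosen after the values had been seen. For each Adrb1 count there were 0.401 and 0.407 Adra2a counts in NSD 1 and NSD 2, and 0.496 and 0.523 in SD 1 and SD 2. For each Adra2c count there were 0.376 and 0.406 Adra2a counts in NSD and 0.460 and 0.466 in SD. For each Adra1b count there were 5.69 and 5.88 Adra1d counts in NSD and 4.38 and 3.93 in SD. For each Adrb1 count there were 1.05 and 0.956 Adra1a counts in NSD and 1.24 and 1.02 in SD. The groups overlapped in the last ratio and not in the first 3, and with 2 libraries against 2 an exact two-sided permutation test cannot go below 1 in 3.

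Levels of different genes can be compared only per length, and the length to use was uncertain here. Merged exon length, the main choice, counts each base of any annotated exon once, and coding length counts the longest coding part alone. Adra1a is the gene for which this mattered most, with 16620 merged bases and 1398 coding bases. Adra2a, Adra2b, Adra2c and Adrb1 have their coding part in transcripts of 1 exon, while Adra1a has 4 exons, Adra1b 5, and Adra1d and Adrb3 2 each in the transcript with the longest coding part.

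Per kilobase of merged exons, Adra1d had the highest level, at 24.1 ± 3.68 (standard deviation, n = 2) CPM per kilobase in NSD and 21.2 ± 1.14 in SD. Among the 15533 protein-coding genes tested that had a length, it was at percentile 91.1 on the length limited to the gene span. With the longest transcript, which runs past the gene span of the table, Adra1d was at 10.3 over the 4 libraries, close to Adrb1 at 10.1 CPM per kilobase. Adra2c followed at 8.86 ± 0.211 in NSD and 9.67 ± 0.0488 in SD, and Adrb1 at 8.73 ± 0.187 and 8.96 ± 0.295 CPM per kilobase, with overlapping ranges and percentiles 78.4 and 77.6. Adra2a at 2.47 ± 0.0761 and 3.19 ± 0.0152, Adra1b at 2.33 ± 0.304 and 2.88 ± 0.374, and Adra1a at 1.78 ± 0.0744 and 2.07 ± 0.351 CPM per kilobase came next, and each overlapped its neighbour in this order. They were at percentiles 52.3, 50.4 and 44.1. Adrb3, at 0.144 ± 0.0359 and 0.142 ± 0.0158, and Adra2b, at 0.0383 ± 0.0138 and 0.0416 ± 0.0101 CPM per kilobase, were at percentiles 11.3 and 2.77, and neither overlapped a neighbour.

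Per kilobase of coding length, 4 subtypes lay together at the top. Adra1d was at 27.1 and 23.9, Adra2c at 22.2 and 24.3, Adra1a at 21.1 and 24.6, and Adrb1 at 21.1 and 21.7 CPM per coding kilobase in NSD and SD, and each range overlapped that of its neighbour. Adra2a at 8.56 and 11.1, Adra1b at 5.11 and 6.30, Adrb3 at 0.605 and 0.594 and Adra2b at 0.113 and 0.123 CPM per coding kilobase followed, each below the subtype before it in all 4 libraries. The rank of Adra1a thus rested on the length, while the low ranks of Adrb3 and Adra2b and the place of Adra2a below Adra2c and Adrb1 did not.

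**Figure D3:**
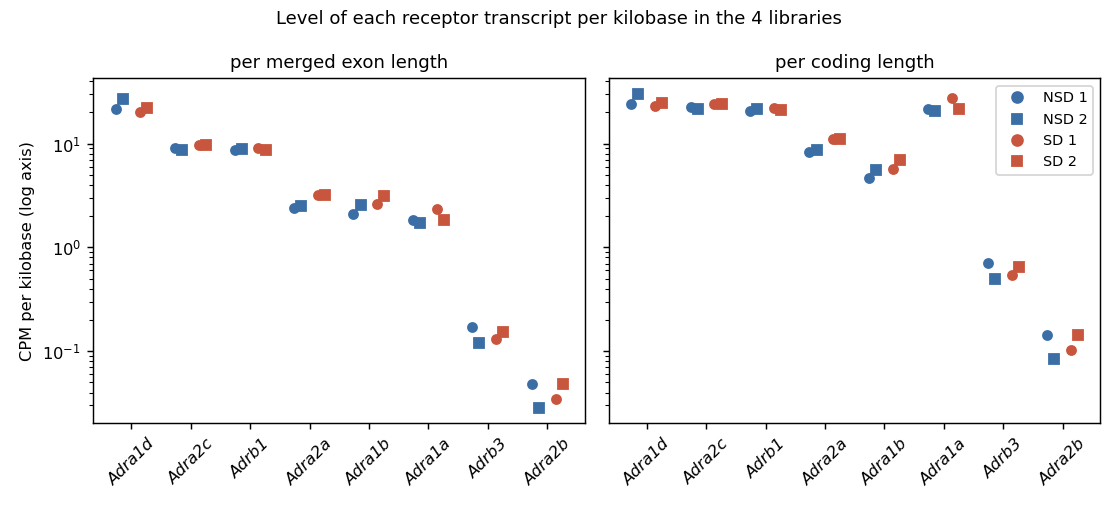
Level of each receptor transcript in CPM per kilobase (log axis) in the 4 libraries, divided by merged exon length (left) and by coding length (right), with blue for NSD, orange for SD, circles for library 1 and squares for library 2. Adra1a moves from about the level of Adra1b on the left to that of Adrb1 on the right, and Adra2b is the lowest in both panels.

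As a share of the summed level per kilobase of the 8 genes, Adra2a was 5.29% and 4.93% in NSD and 6.69% and 6.57% in SD. Adra1d held 47.0% and 52.1% in NSD and 42.9% and 45.1% in SD, on the merged exon length. Over the 4 libraries the Adra1d share was 46.8%, and it was 23.4% under coding length and 26.9% under the longest transcript. Adra1b held 4.64% and 4.98% in NSD and 5.50% and 6.44% in SD, and Adra2c 19.7% and 17.0% in NSD and 20.4% and 19.8% in SD. These 4 shares did not overlap between the groups, with Adra1d lower and the others higher in SD, and those of the other 4 genes overlapped. The shares are parts of the same sum, so a lower Adra1d share by itself raises the rest. In CPM the Adra1d groups overlapped, and those of Adra1b, Adra2a and Adra2c did not. There is no background from other genes for this count, and the limit of the permutation test given for the ratios holds here too. Under coding length the Adra1b and Adra2c shares overlapped, and those of Adrb1, 20.2% and 19.7% in NSD and 19.4% and 19.2% in SD, did not, with a difference that turned from 0.54 to -0.67 percentage points. Under the longest transcript the Adra2c shares overlapped too, at 24.9% and 22.4% in NSD and 24.8% and 24.7% in SD. Those of Adra1b, Adra1d and Adra2a did not. The sum itself, 45.7 and 51.2 CPM per kilobase in NSD and 47.6 and 48.8 in SD on the merged exon length, overlapped. The Adrb1 level per kilobase was 50.7 and 74.5 times that of Adrb3 in NSD and 70.2 and 57.2 times in SD, a mean of 63.1 with overlapping groups. The mean ratio was 36.4 under coding length and 42.0 in counts without length.

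The bases just before a gene start hold sites for transcription factors, and the windows of Adra2a, with the smallest p, of Adra1b, whose libraries had the same order, and of Adrb1, whose groups overlapped, are shown for their contrast in base composition. Each window is the 250 bases before the start of the gene in the deposited table, read from the GRCm39 genome and written 5′ to 3′ on the strand of the gene. RefSeq starts Adra1b 27 and Adrb1 82 bases before the deposited start, and those bases are left out of the 223 and 168 printed. Capitals mark matches, on either strand, to the cyclic AMP response element TGACGTCA, its core TGACG, which is part of the whole element, the AP-1 site TGANTCA or the E-box CACGTG.
Adra2a, chr19:54032332-54032581, plus strand: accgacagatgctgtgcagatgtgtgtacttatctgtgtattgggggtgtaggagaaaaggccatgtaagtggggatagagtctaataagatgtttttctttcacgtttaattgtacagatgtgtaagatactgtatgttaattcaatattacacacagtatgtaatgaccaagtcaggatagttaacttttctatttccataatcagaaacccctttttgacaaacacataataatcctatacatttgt
Adra1b, chr11:43792065-43792287, minus strand: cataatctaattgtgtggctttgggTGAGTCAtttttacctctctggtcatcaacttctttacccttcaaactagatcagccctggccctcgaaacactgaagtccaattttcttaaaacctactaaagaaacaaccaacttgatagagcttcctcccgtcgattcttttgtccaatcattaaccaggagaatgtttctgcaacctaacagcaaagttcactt
Adrb1, chr19:56710381-56710548, plus strand: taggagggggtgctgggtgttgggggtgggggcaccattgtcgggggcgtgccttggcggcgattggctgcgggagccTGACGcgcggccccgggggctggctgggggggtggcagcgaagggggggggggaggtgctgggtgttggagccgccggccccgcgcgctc
The whole Adra2a window was 34.8% G or C with 2 CpG, the Adra1b window 40.8% with 3 CpG, and the Adrb1 window 75.6% with 25 CpG, beside medians of 57.6% and 12 over the windows of 15551 protein-coding genes tested. Of the 8 receptor windows, 2 held the core (Adra1d and Adrb1), 2 an AP-1 match (Adra1b and Adrb3), 0 the whole element and 0 the E-box. The shares over all windows were 23.3% for the core, 4.49% for AP-1, 2.31% for the whole element and 7.74% for the E-box. RefSeq places its start of Adra2a 1108 bases downstream of the deposited start, inside the exon counted here, and a further start of Adra1b 64721 bases downstream, so these windows need not be the ones in use. A match of letters is a description and not a site in use.

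The protein-coding genes most like Adra2a in their log2 CPM deviations over the 4 libraries were Tub, Chd9, a chromatin remodeler, and Fhad1, with root mean square differences of 0.00543, 0.00682 and 0.00842. Within 0.05 of Adra2a by this measure were 132 of 15551 genes. For Adrb1 they were Klc4, a kinesin light chain, Washc4, a WASH complex subunit, and Dok4, at 0.00396, 0.0051 and 0.00513, and 1569 genes lay within 0.05. With 4 libraries many genes share a pattern, and the order among them is a description.

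The genes that make, move and break down noradrenaline had 10 of 13 listed members in the table and 8 tested, with 0 called in either direction by edgeR (beside 0.77% higher and 2.33% lower of all genes) and a median log2 fold change of 0.01. Th, the first enzyme of catecholamine synthesis, was at 1.09 to 1.57 CPM, and Dbh, which makes noradrenaline from dopamine, was at 0 to 0.0423 CPM, too low to test. Slc18a2, the vesicular monoamine transporter, was at 5.74 and 5.86 CPM in NSD and 6.94 and 7.26 CPM in SD, a log2 fold change of 0.29 with an adjusted p of 0.253 (edgeR). Maoa, which oxidises noradrenaline, had -0.21 (adjusted p = 0.259, edgeR), and Slc29a4, a plasma membrane monoamine transporter, -0.30 (adjusted p = 0.38, edgeR).

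Of the G protein subunits, 0 of 10 alpha and 0 of 13 beta or gamma genes were called by edgeR, beside 0.77% higher and 2.33% lower of all genes, with medians of 0.07 and 0.04. The alpha genes with the smallest p were Gnal, a Gs-like subunit, at 0.19, Gnaz, of the Gi class, at 0.15, and Gnai1 at 0.17 on the log2 scale. Among gamma genes they were Gng7 at 0.22, Gng4 at 0.18 and Gng12 at 0.16. Their adjusted p in edgeR ran from 0.133 to 0.445.

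Receptor kinases and arrestins switch off occupied receptors, and RGS proteins speed the return of G proteins to rest. Of 22 such genes, 1 was called higher and 0 lower by edgeR, beside 0.77% and 2.33% of all genes, with a median of 0.03. The called gene was Rgs17, which acts on Gi-class subunits, at 108 CPM in both NSD libraries and 143 and 135 CPM in SD 1 and SD 2. Both SD libraries were above both NSD libraries, and Rgs17 rose by a log2 fold change of 0.37 (SE 0.069, adjusted p = 0.0397, edgeR). With the replicate block 5 were called higher, Rgs17, Grk3, Grk5, Rgs16 and Rgs20, and 2 lower, Rgs14 and Rgs11, where 2.99% of all genes were called higher and 8.47% lower. DESeq2 called Rgs17, Grk3, Grk5, Rgs16 and Rgs20 higher and Rgs11 lower, 5 and 1 genes, beside 2.99% and 5.79% of all genes. Grk3, a kinase recruited by free beta and gamma subunits, was at 152 and 139 CPM in NSD and 181 and 173 CPM in SD, at a log2 fold change of 0.28 and an adjusted p of 0.0866 in edgeR. Rgs14, found in CA2 neurons, was at 54.5 and 56.7 CPM in NSD and 45.2 and 46.1 CPM in SD, at -0.28 and an adjusted p of 0.0583 in edgeR. Rgs11 was at 5.62 and 3.87 CPM in NSD and 2.57 and 1.25 CPM in SD, at -1.31 and an adjusted p of 0.0724 in edgeR.

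**Figure D4:**
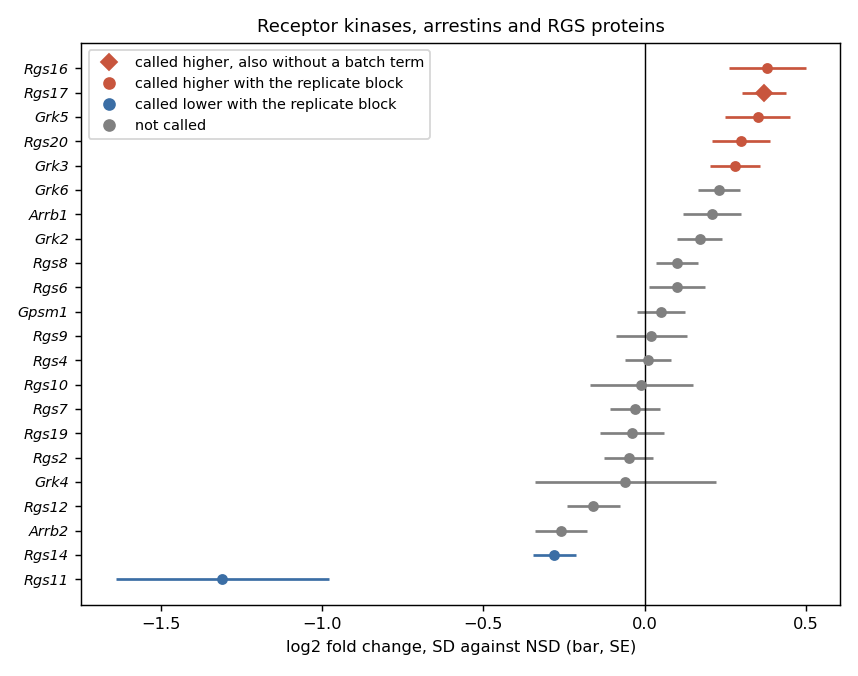
Log2 fold change, SD against NSD (x axis), of the 22 receptor kinases, arrestins and RGS proteins from edgeR with no batch term, with bars for the SE. The diamond marks Rgs17, called higher with and without the replicate block, orange and blue circles mark genes called higher or lower with the block, and gray circles mark genes not called.

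Among direct effectors, 0 of 8 phospholipase C beta and GIRK channel genes were called by edgeR, beside 0.77% higher and 2.33% lower of all genes, with a median of 0.04. Those with the smallest p were Kcnj9, a GIRK subunit of the brain, at a log2 fold change of 0.20, Kcnj5, another GIRK subunit at under 1 CPM, at 0.82, and Plcb4 at 0.15. Of 9 adenylyl cyclases, the enzymes that beta receptors raise and alpha 2 receptors lower, 0 were called by edgeR and 2, Adcy1 and Adcy5, were called higher with the replicate block and with DESeq2, beside 2.99% of all genes in each, with a median of -0.07. Adcy5 was at 287 and 279 CPM in NSD and 339 and 344 CPM in SD, at a log2 fold change of 0.27 and an adjusted p of 0.0936 in edgeR. Adcy1 was at 2590 and 2500 CPM in NSD and 3190 and 3240 CPM in SD, at 0.34 and an adjusted p of 0.14 in edgeR, and Adcy6 was at 0.23 and an adjusted p of 0.121 in edgeR.

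Markers of other cells were read beside these values. Of 8 endothelial markers, 7 had both SD libraries below both NSD libraries, an order found in 27.5% of all genes and 19.9% of protein-coding genes. All 8 summed to 40.5 and 56.9 CPM in NSD and 33.6 and 22.5 CPM in SD, with a median of -0.76. Of these markers 0 were called by edgeR with no batch term, 5 were called lower with the replicate block and 4 with DESeq2, beside 8.47% and 5.79% of all genes. Mural markers summed to 68.9 and 65.2 CPM in NSD and 61.2 and 51.3 CPM in SD, and 4 of 8 had that order. Of the 7 markers used for CA1 and excitatory neurons, 3 (Fibcd1, Neurod6 and Wfs1) had it too, with a list median of -0.03. These 3 were not called by edgeR with no batch term, and all 3 were called lower with the replicate block and with DESeq2. Astrocyte markers summed to 3510 and 3060 CPM in NSD and 3620 and 3630 CPM in SD, with 2 of 8 above, beside 22.0% of all genes. Most of these sums was Slc1a2, at 2990 and 2580 CPM in NSD and 3100 and 3150 CPM in SD (adjusted p = 0.552, edgeR). The sums of oligodendrocyte, microglial, GABAergic interneuron and dentate or CA3 markers overlapped between the groups, at 1580 to 1910, 78.9 to 102, 775 to 882 and 105 to 113 CPM. The part of these shifts in the receptor values was not tested.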

How the data were processed

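The authors trimmed the reads of Illumina Stranded Total RNA libraries sequenced on an Element Aviti24, aligned them with STAR to mm39 and deposited estimated counts per gene (expectation-maximization model of Partek, Ensembl annotation), with no normalization, and 55.6% of the 28193 genes had a value that was not whole. The totals, 153511705 to 195910235 counts, leave little counting error outside Adra2b and Adrb3, and intervals on counts cover counting error only. Whether counting used strand is not given in the sources used here.

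Counts were rounded, and the 22338 genes whose lowest count exceeded 5 were tested. The quasi-likelihood test of edgeR 4.0.16 (R 4.3.3) used TMM scaling and no term but condition, and p-values were adjusted over all of these genes by Benjamini-Hochberg. A call needed adjusted p < 0.05 and a change of more than 1.2-fold. DESeq2 1.42.0, which the study used, and a replicate block were alternatives, among others. The block rests on the batch labels, which pair the libraries by number, and deviations of same-numbered libraries correlated at 0.178 across genes. The scripts were tested on simulated data. The 2 libraries of a group differed by more than sampling noise (chi-square per degree of freedom 85.2 in NSD and 48.2 in SD).

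Lengths came from GENCODE vM39, limited to the gene span of the table, since its transcripts differ from those counted by the authors. The genes named are all 8 receptors, the called genes of each pathway list and the 3 with the smallest p, the 3 genes closest in pattern to Adra2a and to Adrb1, and genes whose exons overlap a receptor. Genes called with the block or DESeq2 but not in the main test are named for those counts. Th, Dbh, Fibcd1, Neurod6, Wfs1, Camk2a, Slc1a2 and Mbp were named after their values were seen. The receptors and lists were chosen with earlier results of these data known. Results for some genes are not reported here.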

Additional observations from a re-analysis of the deposited data

How the results depend on the processing

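The number of receptors called higher, 0, became 1 (Adra2a) with DESeq2 and 1 (Adra2a) with the batch number as a replicate block, and ranged from 0 to 1 when each library was left out, the 1 being Adra1a without SD 2. The block changed no other receptor call. Receptors whose SD libraries all lay above the NSD libraries, 3, became 5 with DESeq2 size factors (25.3% of all genes), and those below, 0, became 1 with library totals and no TMM (34.9% of all genes). The Adra2b log2 fold change ranged from -0.21 to 0.57 when each library was left out and the Adrb3 one from -0.26 to 0.28, with signs turned in Adra2b without NSD 2 (-0.21) and SD 2 (-0.15) and in Adrb3 without NSD 1 (0.28) and SD 1 (0.08). Without a count filter the Adrb3 log2 fold change was 0.00. The median log2 fold change became 0.06 with DESeq2 for G protein beta and gamma subunits, 0.06 for receptor kinases, arrestins and RGS proteins, and -0.00 for markers of CA1 and excitatory neurons.

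Levels and shares rested on the length. In CPM per kilobase over the 4 libraries, coding length gave 22.9 for Adra1a, 5.71 for Adra1b, 25.5 for Adra1d, 9.81 for Adra2a, 0.118 for Adra2b, 23.2 for Adra2c, 21.4 for Adrb1 and 0.60 for Adrb3. The longest transcript gave 2.93 for Adra1a, 10.3 for Adra1d and 10.1 for Adrb1, and the exons of all transcripts, an alternative chosen after seeing the data, gave 1.59 for Adra1a and 10.3 for Adra1d. Shares under coding length were 20.9% for Adra1a, 23.4% for Adra1d, 8.95% for Adra2a, 0.109% for Adra2b, 21.3% for Adra2c, 19.6% for Adrb1 and 0.551% for Adrb3. Under the longest transcript they were 7.66% for Adra1a, 6.89% for Adra1b, 26.9% for Adra1d, 7.37% for Adra2a, 24.2% for Adra2c, 26.5% for Adrb1 and 0.406% for Adrb3. The Adrb1 to Adrb3 ratio was 36.4 under coding length and 42.0 in counts without length. These shifts follow from the lengths that divide the same counts. With 2 pools per group, smaller changes of Adra1a, Adra1b, Adra1d and Adra2c could be missed.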
